A study of Mus musculus with 2 samples.

Results

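Genes of DNA replication and mitosis were described in mouse liver after a dietary change, as a set of 38 gene names: 17 genes of DNA replication and 21 of mitosis. A probe set is the group of array spots that reads 1 transcript, and a gene was taken as measured where a probe set was annotated with its symbol alone. By that rule 37 of the 38 genes were measured, out of 18193 such genes on the array, with 83 probe sets in all, and Ccnb1 (cyclin B1) had none. The probe set with the highest mean log2 signal stood for its gene, and the others served as a check.

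The DEF/FOS pool was liver RNA of male C57Bl/6J mice given a diet low in n-3 polyunsaturated fatty acids, in which sunflower oil replaced soybean oil, for all 112 days of the experiment. In the last 10 days their water held fructooligosaccharides (FOS), a fermentable fibre, for an intake of 0.25 g per day. The DEF/CT pool came from mice of the same strain, sex and depletion that were moved in the last 10 days to the soybean oil control diet. The n-6 to n-3 ratio of the last diet was 127.2 for DEF/FOS and 6.9 for DEF/CT, and the mice were 9 weeks old on arrival, with 1 week to settle before the diets. The protocol names 8 mice per group, and pools are described as holding RNA of 4 to 8 mice in equal amounts. Each pool was read on 1 Affymetrix array, so no test was possible, and fibre and oil of the last diet cannot be told apart. The values are MAS5 signals, a linear measure of brightness that the authors scaled to a common trimmed mean of 100.00.

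Before a cell divides, the MCM helicase is loaded onto DNA by Cdc6 and Cdt1 and joined by the GINS complex in its active form. Polymerases held in place by the Pcna clamp follow the helicase, while ribonucleotide reductase supplies the nucleotides. At mitosis the kinase Cdk1, bound to cyclins A and B, starts chromosome condensation and spindle assembly, and the anaphase-promoting complex with Cdc20 and Ube2c ends it by destroying the cyclins. Most hepatocytes of an adult liver are out of the cell cycle and re-enter it after loss or injury of tissue, so mitosis transcripts are scarce in resting liver.

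Both sets of genes had many members with a higher signal in the DEF/FOS pool. With the signal floor described below, neither had a member at least 1.5-fold lower. Of the 37 genes, 15 were at least 1.5-fold higher, where 4.13% of all genes were, and 0 were at least 1.5-fold lower, where 4.85% of all genes were. The replication genes gave 7 of 17 and the mitosis genes 8 of 20. Only 4 of the 37 reached 2-fold, where 0.890% of all genes did so in this direction. These were Cdk1, Cdc20, Mcm5 and Ccna2, and a further 6 lay just under that line, the lowest of them at 1.95-fold, with Gins2 and Ube2c among them as lower bounds. None of the 37 was at least 2-fold lower, where 1.09% of all genes were. With the floor described next raised to the 75th percentile of probe sets, 28 of the 37 genes had both pools below it and 1, Rrm2, was at least 1.5-fold higher. In bulk RNA, fewer cells of a type and less RNA per cell cannot be told apart.

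All folds rest on a signal floor of 19.4, the median over probe sets, below which signals have no order here. A signal under it was set to the floor, so a fold with 1 pool below it is a lower bound and is printed as "at least", and a gene with both pools below it counts as no difference. Log2 differences are DEF/FOS minus DEF/CT after centring on a median of -0.01.

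**Figure D1:**
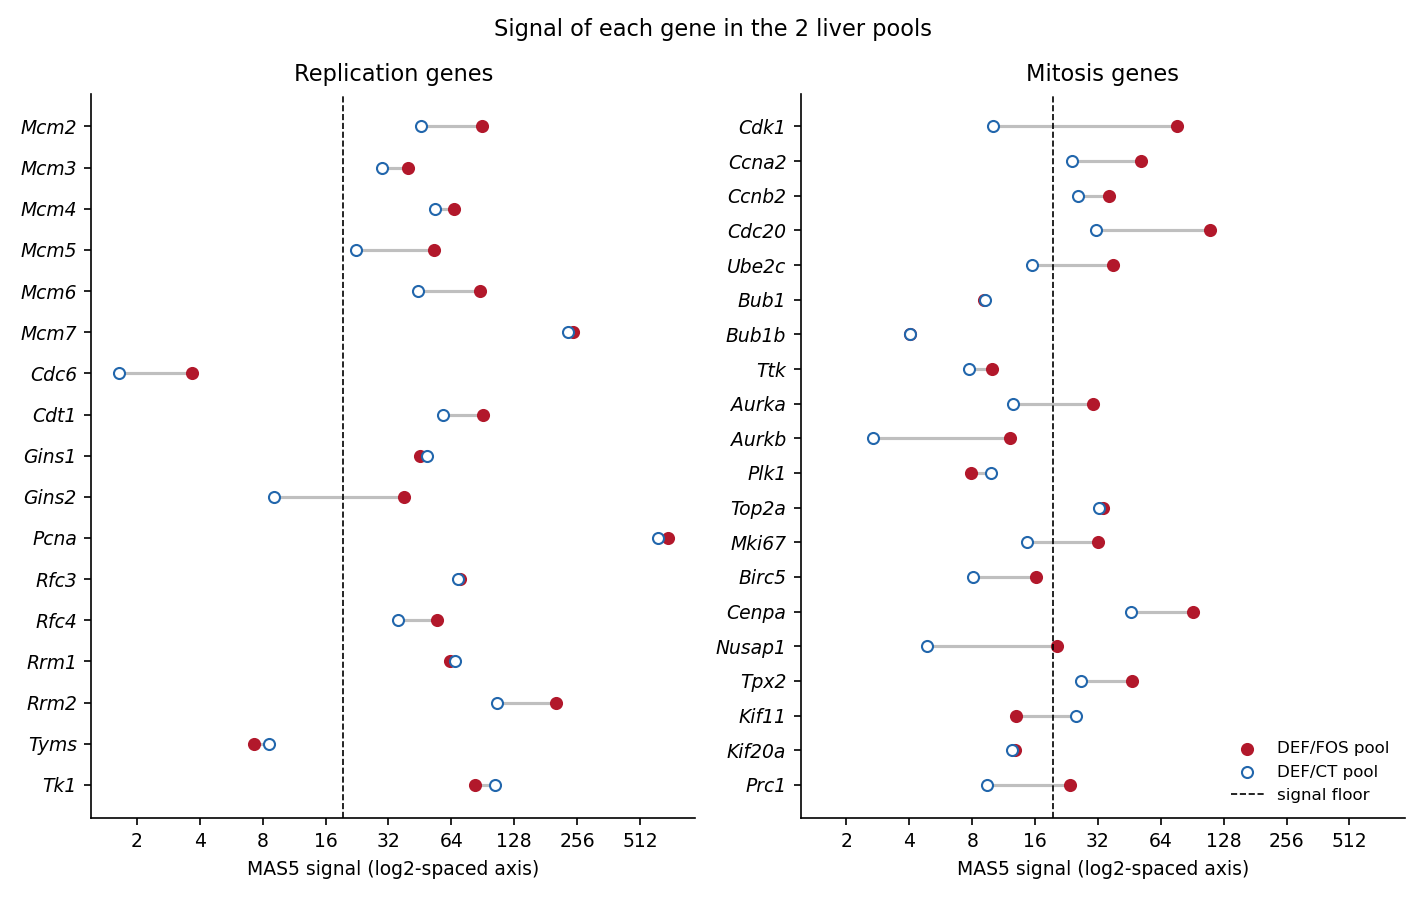
MAS5 signal of each of the 37 genes in DEF/FOS (filled) and DEF/CT (open) on a log2-spaced axis, replication genes on the left and mitosis genes on the right, with the floor of 19.4 dashed. Replication genes lie mostly right of the floor in both pools, while 7 of 20 mitosis genes lie left of it in both.

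Among the 6 subunits of the replicative helicase, the spread of differences was wide. Mcm5 had a signal of 53.0 in DEF/FOS and 22.3 in DEF/CT, a 2.40-fold difference. Mcm2 had 90.1 in DEF/FOS and 45.7 in DEF/CT, or 1.99-fold, and Mcm6 had 87.5 and 44.5 in the same pools, also 1.99-fold. The other helicase subunits were closer together. Mcm3 had 39.8 in DEF/FOS and 29.9 in DEF/CT, which is 1.35-fold higher, and Mcm4 had 65.9 and 53.2, which is 1.25-fold. Mcm7, the brightest subunit, had 246 in DEF/FOS and 233 in DEF/CT, a fold of 1.07. The protein subunits form a ring in equal numbers, but their probe sets differ in brightness for reasons of design, so levels cannot be ranked between the subunits.

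The factors that load the helicase or join its active form differed as much. Cdt1, which brings the helicase to replication origins, had 90.7 in DEF/FOS and 58.1 in DEF/CT, a 1.58-fold difference. Gins2, a GINS subunit, had 38.1 in DEF/FOS and 9.05 in DEF/CT, so that it was at least 1.98-fold higher. Its partner Gins1 had 45.5 and 48.7 in these pools, a difference of -0.08 on the log2 scale. Both pools were below the floor for Cdc6, the other loading factor, at 3.65 in DEF/FOS and 1.64 in DEF/CT.

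The polymerase clamp and its loader held 1 gene past 1.5-fold, Rfc4, by its brightest probe set. Pcna, the sliding clamp and the gene of highest signal in the set, had 697 in DEF/FOS and 627 in DEF/CT, or 1.12-fold. Rfc3, a subunit of the clamp loader, had 70.6 in DEF/FOS and 68.9 in DEF/CT. Rfc4, of the same complex, had 54.6 in DEF/FOS and 35.5 in DEF/CT, a 1.56-fold difference, while its other probe set above the floor differed by 0.12 on the log2 scale.

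Of the enzymes that supply deoxynucleotides, only Rrm2 passed 1.5-fold by its brightest probe set. Rrm2, the small subunit of ribonucleotide reductase whose amount limits the enzyme in dividing cells, had 204 in DEF/FOS and 106 in DEF/CT, a 1.95-fold difference. Rrm1, the large subunit, had 62.8 in DEF/FOS and 66.3 in DEF/CT, a log2 difference of -0.06. A probe set of Rrm1 almost as bright had 77.5 in DEF/FOS and 50.5 in DEF/CT, a log2 difference of 0.63, so its probe sets lie on both sides of 1.5-fold. Tk1, a thymidine kinase of dividing cells, had 82.9 in DEF/FOS and 104 in DEF/CT, the lowest log2 difference among replication genes at -0.31. Tyms, which makes thymidylate, was below the floor in both pools, at 7.27 in DEF/FOS and 8.56 in DEF/CT.

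The promoters of Mcm5 and Mcm2 are shown because these replication genes had the largest floored differences among those in the RefSeq promoter table. Each run is the 250 bases before the gene start on the GRCm38.p6 assembly, read along the gene's strand. Mcm5 lies at chr8:75109259-75109508 on the plus strand and Mcm2 at chr6:88898781-88899030 on the minus strand. Capitals mark matches to 3 motifs of cell cycle promoters, on either strand: the E2F site (TTTGGCGC, TTTCGCGC, TTTCCCGC or TTTGCCGC), the cell cycle homology region or CHR (TTTGAA or TTCGAA), and the box CCAAT bound by NF-Y.
Mcm5: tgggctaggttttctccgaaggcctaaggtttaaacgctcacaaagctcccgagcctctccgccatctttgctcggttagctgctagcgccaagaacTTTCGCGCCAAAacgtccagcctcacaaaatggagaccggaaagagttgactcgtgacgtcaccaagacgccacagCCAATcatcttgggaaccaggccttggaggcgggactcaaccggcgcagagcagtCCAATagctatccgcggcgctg
Mcm2: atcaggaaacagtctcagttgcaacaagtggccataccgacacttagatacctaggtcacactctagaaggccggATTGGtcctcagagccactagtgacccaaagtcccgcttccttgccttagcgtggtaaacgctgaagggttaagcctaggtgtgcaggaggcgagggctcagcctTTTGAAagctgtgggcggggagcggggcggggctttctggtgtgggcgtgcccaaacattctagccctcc
In the Mcm5 run, 2 E2F matches overlap at positions -153 and -149 from the start, and CCAAT matches stand at -77 and -22. The Mcm2 run holds a CHR match at -70 and a reversed CCAAT at -175, and no E2F match in these letters.

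With the floor in place, the largest differences of the whole set were those of Cdk1 and Cdc20, both mitosis genes. Without it, Aurkb (2.19), Gins2 and Nusap1 (2.09 each) lay above the log2 difference of Cdc20 (1.83), each with at least 1 pool below the floor. Cdk1, the kinase that drives entry into mitosis, had a signal of 76.8 in DEF/FOS and 10.1 in DEF/CT, so that it was at least 3.99-fold higher, the largest of the 37. It has 1 probe set on the array, so no other probe set bears on it. Ccna2 (cyclin A2), a partner of Cdk1 and of the S phase kinase, had 51.7 in DEF/FOS and 24.0 in DEF/CT, a 2.18-fold difference. Ccnb2 (cyclin B2) had 36.1 in DEF/FOS and 25.8 in DEF/CT, or 1.41-fold.

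Both partners of the anaphase-promoting complex, the ubiquitin ligase that ends mitosis, were higher in the DEF/FOS pool. Cdc20, its activator, had 110 in DEF/FOS and 31.3 in DEF/CT, a 3.55-fold difference. Ube2c, the ubiquitin-conjugating enzyme that works with it, had 37.6 in DEF/FOS and 15.4 in DEF/CT, and was at least 1.96-fold higher.

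The 3 promoters below belong to the mitosis genes with the largest floored differences among those in the promoter table, with the same build, window and capitals. Cdk1 lies at chr10:69352913-69353162 on the minus strand, Cdc20 at chr4:118437344-118437593 on the minus strand and Cenpa at chr5:30666636-30666885 on the plus strand.
Cdk1: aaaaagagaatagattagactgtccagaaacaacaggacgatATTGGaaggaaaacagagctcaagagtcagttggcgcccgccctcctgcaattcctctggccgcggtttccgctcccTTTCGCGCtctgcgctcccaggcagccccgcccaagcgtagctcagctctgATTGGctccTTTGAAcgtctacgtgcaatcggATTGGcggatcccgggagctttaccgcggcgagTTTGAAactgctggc
Cdc20: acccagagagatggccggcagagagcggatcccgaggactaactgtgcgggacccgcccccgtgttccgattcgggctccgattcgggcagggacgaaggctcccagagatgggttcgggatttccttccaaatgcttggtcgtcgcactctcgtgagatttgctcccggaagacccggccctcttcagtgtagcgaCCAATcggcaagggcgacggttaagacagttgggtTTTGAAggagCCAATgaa
Cenpa: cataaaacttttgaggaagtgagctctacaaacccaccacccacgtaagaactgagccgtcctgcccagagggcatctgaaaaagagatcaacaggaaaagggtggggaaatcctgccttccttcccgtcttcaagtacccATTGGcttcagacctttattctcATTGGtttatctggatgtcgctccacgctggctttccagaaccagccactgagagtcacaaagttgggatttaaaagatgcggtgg
The Cdk1 run holds an E2F match at -131, CHR matches at -71 and -15, and reversed CCAAT boxes at -208, -80 and -48. In Cdc20 a CHR match at -18 lies between CCAAT boxes at -53 and -8. Cenpa has reversed CCAAT boxes at -109 and -86 and neither other motif in this window.

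Of 4 proteins of mitotic chromosomes, Cenpa and Mki67 passed 1.5-fold. Cenpa, the histone variant that marks centromeres, had 91.2 in DEF/FOS and 46.2 in DEF/CT. Its log2 difference of 1.00 fell short of 2-fold in the next digit. Of the 3 Cenpa probe sets only 1 had a mean signal above the floor, and the median over them was 0.00. Mki67, the gene of the proliferation antigen Ki-67, had 31.9 in DEF/FOS and 14.7 in DEF/CT, at least 1.66-fold. Top2a, the topoisomerase that untangles sister chromosomes, had 33.7 in DEF/FOS and 32.3 in DEF/CT, a log2 difference of 0.08. Birc5 (survivin, a subunit of the Aurora B complex) was below the floor in both pools, at 16.2 in DEF/FOS and 8.06 in DEF/CT.

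The mitotic and checkpoint kinases were mostly too dim to compare. Aurka, the spindle pole kinase, had 30.3 in DEF/FOS and 12.6 in DEF/CT, at least 1.57-fold. Aurkb, the kinase of the chromosomal passenger complex, was below the floor at 12.1 in DEF/FOS and 2.68 in DEF/CT, and Plk1, another mitotic kinase, at 7.91 and 9.81. The spindle checkpoint kinases Bub1, Bub1b and Ttk were all below it in both pools. Bub1 had 9.15 in DEF/FOS and 9.17 in DEF/CT, Bub1b 4.03 and 4.02, and Ttk 10.0 and 7.75. For these 5 kinases the arrays give no direction.

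Spindle and midzone genes held the only member whose floored difference was below 0 in the mitosis set. Kif11, the motor that pushes spindle poles apart, had 13.0 in DEF/FOS and 25.003 in DEF/CT, at least 1.27-fold lower. Without the floor the log2 difference of Kif11 was -0.93, past 1.5-fold lower. Tpx2, which activates Aurka on the spindle, had 46.5 in DEF/FOS and 26.5 in DEF/CT, or 1.77-fold higher. Prc1, which bundles midzone microtubules, had 23.5 in DEF/FOS and 9.38 in DEF/CT, at least 1.22-fold. Nusap1, a microtubule binder, barely cleared the floor at 20.3 in DEF/FOS against 4.83 in DEF/CT, and Kif20a, a midzone motor, had 12.8 and 12.4, both below it.

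More mitosis than replication genes lay at low signal, where their probe sets can say little. The median signal of the replication genes was 65.9 in DEF/FOS and 48.7 in DEF/CT, and that of the mitosis genes 26.9 and 12.5. Both pools lay below the floor for 2 of 17 replication genes and for 7 of 20 mitosis genes, or 35.0%, where 32.7% of all genes did. The median floored difference was 0.32 for replication genes and 0.18 for mitosis genes, beside 0.00 over all genes. Over the 14 replication genes with both pools above the floor it was 0.38, and over the 6 such mitosis genes 0.91, a split added after the values were seen. The order of the medians therefore turns with the treatment of dim genes. Without any floor the medians were 0.43 for replication and 1.01 for mitosis genes.

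**Figure D2:**
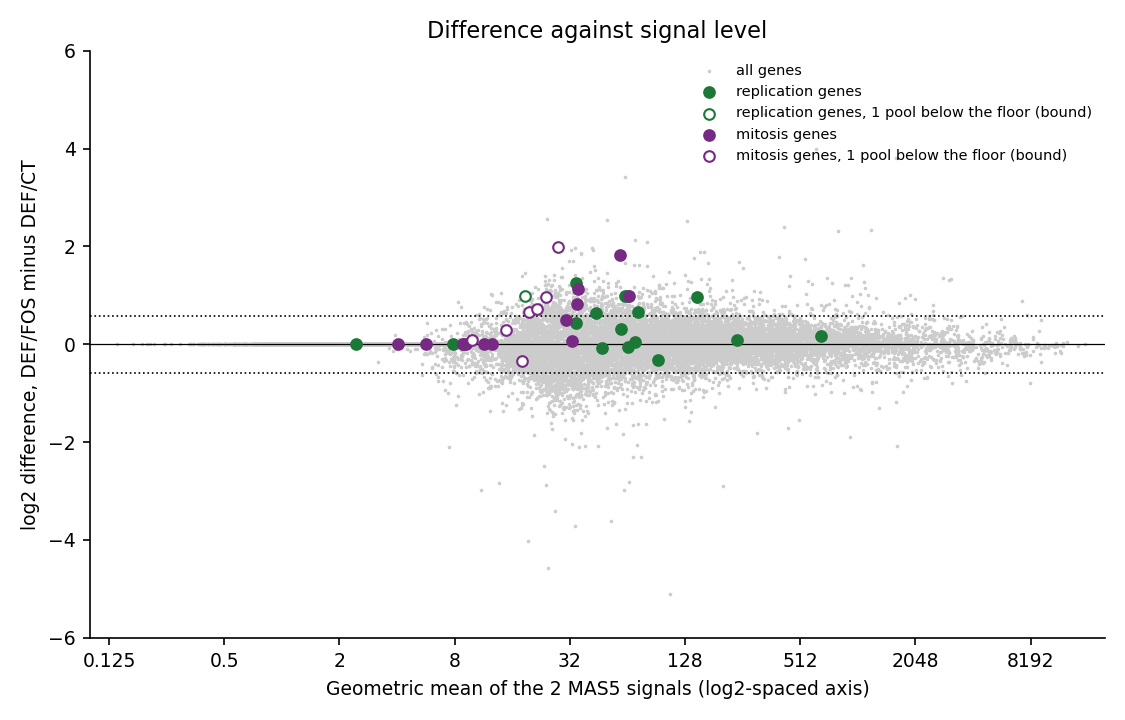
Log2 difference (DEF/FOS minus DEF/CT) against the geometric mean of both signals, with every gene in grey, replication genes in green and mitosis genes in purple. Open symbols are bounds with 1 pool below the floor, dotted lines mark 1.5-fold, and points at 0 on the far left are genes with both pools below the floor.

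Low signal is where folds are least exact, so the counts were also read within 4 bins of equal size, into which all genes were ranked by mean signal. In the second bin, at signals of 9.36 to 37.5, 8 of 16 genes of the set were at least 1.5-fold higher, beside 250 of the 4548 genes there, or 5.50%. In the third, at 37.5 to 167, it was 7 of 12, beside 7.83%. The 2 genes in the brightest bin, Pcna and Mcm7, were both under 1.5-fold, beside 3.14% of genes at or over it. The 7 genes in the dimmest bin had both pools below the floor. Genes of low signal as a whole leaned the other way: without a floor the median log2 difference was -0.35 in the dimmest bin and -0.18 in the second, with array medians of 19.6 in DEF/FOS and 22.0 in DEF/CT.

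Among the 14 genes with more than 1 probe set above the floor, 9 had every such probe set higher in the DEF/FOS pool, 0 had every one lower and 5 had both signs. For Mcm2 the log2 differences of its probe sets ran from 0.99 to 1.56, for Cdc20 from 1.35 to 1.83, for Rrm2 from 0.46 to 0.96 and for Ccna2 from 0.50 to 1.12. Of the 15 genes past 1.5-fold, 8 had another probe set above the floor, and 5 of these 8 passed by the brightest probe set alone. The other probe set differed by -0.10 for Cdt1, -0.39 for Tpx2, 0.12 for Rfc4, 0.36 for Mcm6 and 0.50 for Ccna2. The genes with mixed signs were Cdt1, Tpx2, Mcm3, Mcm7 and Rrm1. The SD between probe sets of a gene was 0.41 on the log2 scale over these 14 genes and 0.38 over 4885 genes of the array, where it was 0.49 for genes with signals up to 122 and 0.33 for brighter ones. This SD covers neither the spread between mice nor that between arrays. By the median over probe sets, 9 of the 37 genes were at least 1.5-fold higher, beside 2.64% of all genes.

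**Figure D3:**
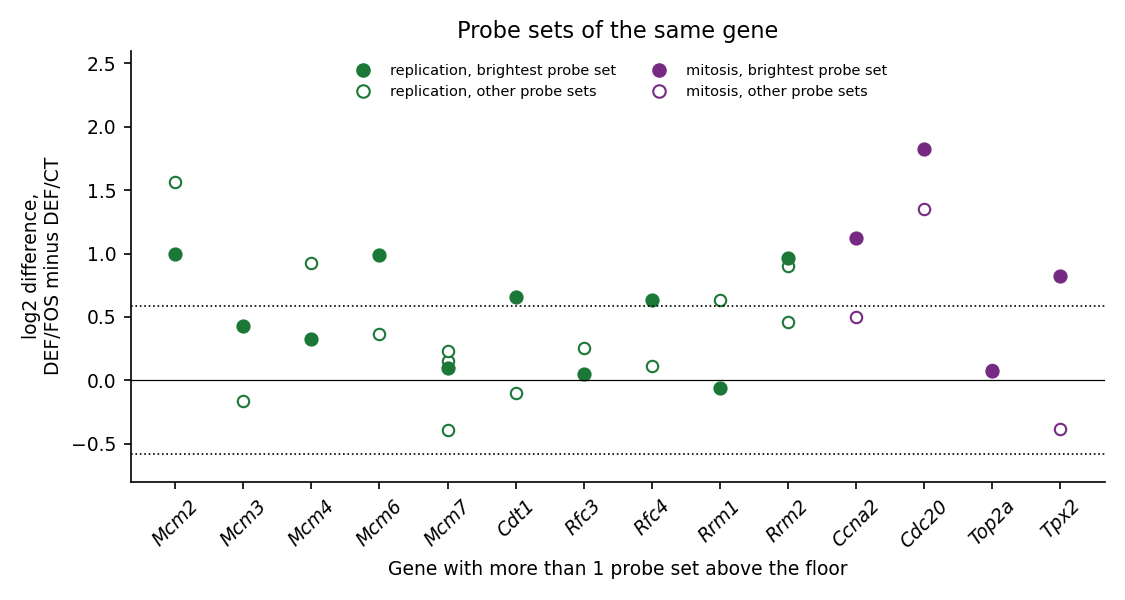
Log2 difference (DEF/FOS minus DEF/CT) of each probe set above the floor, for the 14 genes with more than 1. Filled symbols are the brightest probe set of a gene and open ones the others, and dotted lines mark 1.5-fold. All probe sets lie above 0 in 9 of the 14 genes.

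At 1.5-fold with the floor, the neighbouring genes of the pathway gave smaller shares than the 37 genes. Over all genes these shares were 4.13% higher and 4.85% lower. At least 2-fold higher were 9.43% of other mitosis genes and 20% of G1 phase regulators, beside 10.8% of the 37 genes and 0.890% of all genes. The lists of other replication, repair and regulator genes held 0 at 2-fold. Of 53 other mitosis genes measured, 10 passed 1.5-fold upward and 0 downward, and their median log2 difference was 0.00 because 21 of them had both pools below the floor. The kinase gene Nek2 had 75.8 in DEF/FOS and 34.1 in DEF/CT, a 2.25-fold difference by its brightest probe set. Its 3 probe sets above the floor differed by 0.12 to 1.17 on the log2 scale. Spc25, of the outer kinetochore, had 144.9 in DEF/FOS and 65.6 in DEF/CT, or 2.23-fold by its brightest probe set, while its other probe set differed by -0.45. Incenp, the scaffold of the Aurora B complex, was at least 2.17-fold higher and the mitotic kinase Pbk 2.09-fold.

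Of 35 other replication genes, 3 passed 1.5-fold upward and 1 downward, beside 4.13% and 4.85% of all genes. The median log2 difference of these 35 genes was 0.06. Dnmt1, which copies DNA methylation at the fork, had 82.4 in DEF/FOS and 46.8 in DEF/CT, a 1.78-fold difference by its brightest probe set. The 2 Dnmt1 probe sets above the floor differed by 0.46 and 0.83 on the log2 scale. Dbf4, the activator of the origin kinase Cdc7, was 1.61-fold higher and Prim1, a primase subunit, 1.53-fold. Mcm10, a helicase activator, had 601 in DEF/FOS and 918 in DEF/CT and was 1.51-fold lower.

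Repair genes that act at forks gave 2 of 18 at least 1.5-fold higher and 0 lower, beside 4.13% and 4.85% of all genes. The 2 were Rad18, at 38.4 in DEF/FOS and 18.5 in DEF/CT, and Topbp1, 1.54-fold. The regulators of replication and mitosis genes gave 2 of 19 higher and 0 lower. E2f3 was 1.60-fold and E2f5 1.54-fold higher, each with other probe sets of the opposite sign. Foxm1, the activator of mitosis genes, had 17.7 in DEF/FOS and 28.5 in DEF/CT, at least 1.45-fold lower. Of 15 regulators of the G1 phase, 3 were higher by 2-fold or more, beside 0.890% of all genes. The inhibitor Cdkn1a was 3.68-fold higher, the cyclin Ccnd1 3.46-fold and the phosphatase Cdc25a 2.44-fold. Cdc25a had 88.5 in DEF/FOS and 36.6 in DEF/CT.

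**Figure D4:**
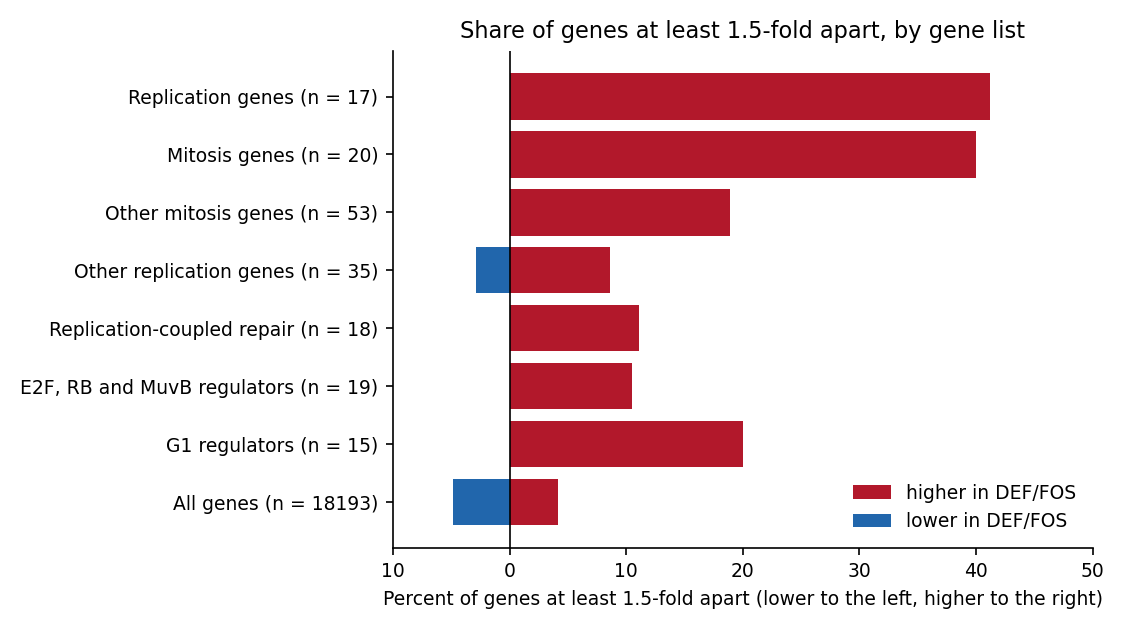
Percent of genes in each list that were at least 1.5-fold higher (right, red) or lower (left, blue) in the DEF/FOS pool, with the number of genes measured. The bars of the first 2 lists stand for 7 of 17 and 8 of 20 genes, and that of all genes for 4.13%.

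In the RefSeq promoter table, 33 promoters of 31 of the genes were found, Ccnb1 among them, and set beside all 32851 promoters of the table. An E2F match stood in 5 of 15 replication promoters and 1 of 18 mitosis promoters, or 33.3% and 5.56%, beside 1.86% of all promoters. A CHR match stood in 3 of 15 replication and 9 of 18 mitosis promoters, beside 17.1% of all. CCAAT on either strand stood in 10 of 15 and 16 of 18, beside 33.8% of all. Genes with little difference also held matches. Top2a, with a log2 difference of 0.08, had 4 CHR matches, and Cenpa had none. A match is a run of letters and does not show that a factor binds there.

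**Figure D5:**
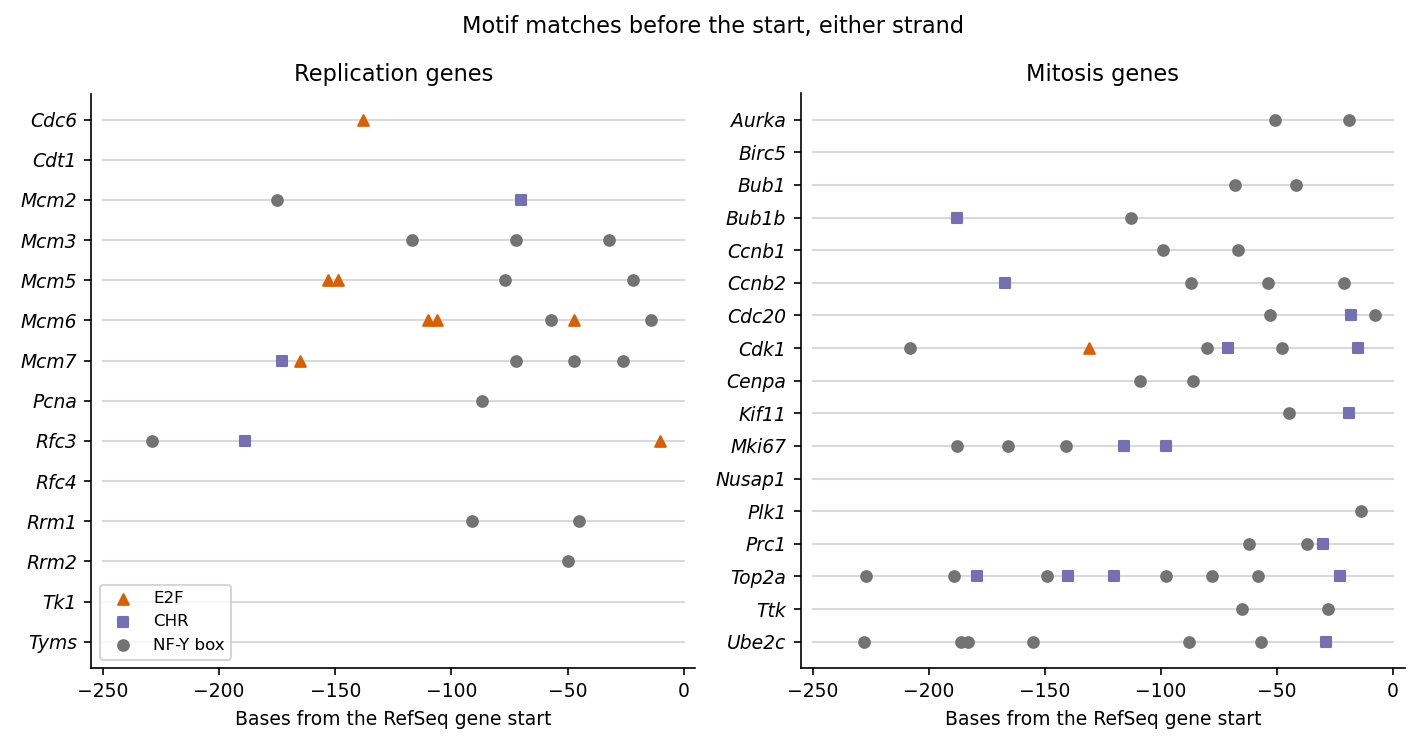
Position of each motif match in the 250 bases before the RefSeq start, for replication genes (left) and mitosis genes (right); Mcm7 and Prc1 each have 2 starts drawn on 1 line. E2F matches (triangles) are mostly in replication genes, and CHR matches (squares) and NF-Y boxes (circles) mostly in mitosis genes.

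Cycling cells in a liver sample can belong to several cell types, and the markers of some of these differed between the pools. Neutrophil markers had a summed signal of 329 in DEF/FOS and 106 in DEF/CT, with 3 of 5 at least 1.5-fold higher. Among them S100a8 was 4.38-fold and S100a9 3.16-fold higher. Markers of neutrophil precursors, which divide, summed to 84.3 in DEF/FOS and 100.6 in DEF/CT, with 5 of 8 below the floor in both pools and 0 at 1.5-fold in either direction. Markers of Kupffer cells and macrophages summed to 4549 in DEF/FOS and 3902 in DEF/CT, with 1 of 11, Marco, at least 1.5-fold higher.

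Erythroid markers summed to 429 in DEF/FOS and 737 in DEF/CT, where Alas2 was 1.88-fold lower and 4 of 8 were below the floor in both pools. B and plasma cell markers summed to 414 in DEF/FOS and 1095 in DEF/CT, with 4 of 7 at least 1.5-fold lower and 7 of 7 below 0. Most of both sums was Ighm, at 243 in DEF/FOS and 809 in DEF/CT. The 5 Ighm probe sets above the floor differed by -1.72 to 0.23 on the log2 scale. T and NK cell markers summed to 112.0 in DEF/FOS and 123.8 in DEF/CT, with Cd3d, Cd3e and Cd3g below the floor in both. The sums were 1756 in DEF/FOS and 1809 in DEF/CT for endothelial, 2666 and 2858 for stellate, and 144.1 and 114.2 for bile duct cell markers. Skeletal muscle markers, foreign to liver, summed to 136 in DEF/FOS and 2596 in DEF/CT, and 10 of 10 were at least 2-fold lower. The hepatocyte markers, which check the tissue, summed to 78512 in DEF/FOS and 81941 in DEF/CT with 0 of 10 at 1.5-fold. What part these cells have in the replication and mitosis signals was not tested.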

How the data were processed

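Liver RNA pools of the DEF/FOS and DEF/CT groups were each measured on 1 Affymetrix array. The deposited signal intensities are linear MAS5 values, and MAS5 and GCOS are named without a version in the submitters' processing notes. The file holds 45101 probe sets and no detection calls, and the 2% trimmed mean was 100.00 in both arrays. Symbols came from GEO's platform annotation. It gave 1 symbol for 34945 probe sets that are not controls and several for 932, which were not used. Entrez identifiers matched RefSeq GRCm38.p6 for 34741, and 0 symbols changed.

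From these values, log2 differences were computed with Python 3.11.15, numpy 2.4.6 and pandas 2.3.3. The 22519 probe sets at or above the floor, among which Pearson's r between the arrays was 0.967, set the centring. With 1 array per group no test was made, and the number of arrays limits the precision. The steps were tested on simulated data. That test bears on the computation and cannot show how exact the differences of dim genes or the lower bounds are in these arrays. The members, lists and naming rule were chosen with earlier results of these data known. The rule named every member, up to 4 genes of each pathway list by size of difference and up to 3 of each cell type list by signal. Marco, Cd3d, Cd3e and Cd3g were named after their values were seen. Alternatives covered the probe set choice, the floor, an offset, the centring, quantile normalization and the promoter window and strand.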

Additional observations from a re-analysis of the deposited data

How the results depend on the processing

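Without centring no count of members, other replication or other mitosis genes changed. Quantile normalization gave 16 of 37 genes at least 1.5-fold higher, beside 4.33% of all genes. It gave 8 at 2-fold, 4 of them replication genes, beside 0.995%. With the floor at the 75th percentile, where 1.19% of all genes were at least 1.5-fold higher, both pools were below it for 28 genes (10 replication and 18 mitosis). Then 1 of 37 genes was at least 1.5-fold higher (1 replication, 0 mitosis), 0 reached 2-fold in either set, the 3 medians were 0.00, and other replication and other mitosis genes gave 0 and 2. With the floor at the 25th percentile, both pools were below it for 2 genes (1 and 1). Then 15 reached 2-fold (4 replication, 11 mitosis), beside 4.42% of all genes, and 1, the mitosis gene Kif11, was at least 1.5-fold lower. The medians were 0.67 over all and 1.04 over mitosis genes. Other replication genes gave 6 higher, and other mitosis genes 26 higher and 2 lower, beside 10.7% of all genes higher and 14.4% lower. Without a floor, 20 of 37 genes were at least 1.5-fold higher, beside 14.4% of all genes, and 1, Kif11, was lower, beside 20.8%. At 2-fold there were 13 (3 and 10), beside 8.56%, with medians of 0.66, 0.43 and 1.01. Other replication genes gave 5 higher and 2 lower, and other mitosis genes 26 and 4. With an offset of 32, 9 of 37 were at least 1.5-fold higher (4 mitosis), beside 2.03% of all genes. At 2-fold there were 2 (0 replication), beside 0.313%. The medians were 0.21 for replication and 0.40 for mitosis genes, and the other lists gave 0 higher and 0 lower (replication) and 6 higher (mitosis). The median over probe sets gave 9 at 1.5-fold (4 and 5), beside 2.64% of all genes, and 2 at 2-fold (0 replication), beside 0.583%. It gave medians of 0.076 over all, 0.15 and 0.049, and 1 other replication and 3 other mitosis genes higher. The dimmest probe set above the floor gave medians of 0.17 over all and 0.081 over mitosis genes, and 2 other replication genes and 1 other mitosis gene lower. Without probe sets ending in _x_at, _s_at or _a_at, which can match several transcripts, 31 genes were left. Of these, 11 were at least 1.5-fold higher, beside 4.06% of the 16591 genes left on the array. At 2-fold there were 0 replication genes, beside 0.735%. The medians were 0.079 over all, 0.049 for replication and 0.081 for mitosis genes, and the other lists gave 2 lower (replication) and 4 higher (mitosis). In both of these last settings Cdt1 turned to -0.10 and Tpx2 to -0.39. Without the probe sets of these endings, Mcm5 fell to 0.63, Cdc20 to 1.35, and Gins2 and Cenpa to 0.00, while Cdk1 and Ccna2 kept their values. Of 327 values of single genes under the alternatives, 258 moved by less than the SD between probe sets, and 7 changed sign: 2 each of Cdt1, Tpx2 and Mcm3 and 1 of Rrm1. Some of these values could hardly move. Genes with both pools below the floor stay at 0 where the floor is kept or raised, and leaving out the centring shifts values only by its small median. The count is therefore no measure of how firm single differences are. With both pools above the floor, a choice made after seeing the data, 6 of 14 replication and 4 of 6 mitosis genes were at least 1.5-fold higher. The median of these 6 mitosis genes was 0.91. The share over all genes with both pools above the floor was not computed. With at least 1 pool above it, 6.14% of 12241 genes were at least 1.5-fold higher. Requiring every probe set above the floor to be higher, also chosen later, left 6 replication and 7 mitosis genes. The share of all genes left by this rule was not computed. Gins2 stayed by default, with 0 probe sets whose mean signal reached the floor. Only 8 of the 15 genes past 1.5-fold had another probe set above the floor, so this rule could drop no other gene. On the gene's own strand, 3 replication promoters held E2F (0.968% of all) and 4 CCAAT (19.1%), and within 150 bases 1 held CHR (9.70%). No paired analysis was possible because each group has 1 array. Causes were not tested.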
